A study of Rattus norvegicus with 138 samples.

Results

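The rostral ventrolateral medulla (RVLM) was compared at 8 wk of age between a strain with inherited hypertension, the spontaneously hypertensive rat (SHR), and its normotensive control strain, the Wistar-Kyoto (WKY) rat. All libraries of these 2 groups in the RVLM table were taken, 5 SHRs and 5 WKY rats, which are 10 of the 46 RVLM libraries; the series holds 46 libraries of each of 3 brainstem regions. The rats were females of the SHR/NHsd and WKY/NHsd substrains and received no treatment. SHRs of this age are regarded as prehypertensive, and the other libraries cover 10, 12, 16 and 24 wk and the caudal ventrolateral medulla (CVLM) and nucleus of the solitary tract (NTS). Each library was made from punches of both sides of 1 animal, so the 10 values per gene are from 10 rats.

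The RVLM holds the premotor neurons that set sympathetic outflow to the heart and vessels. Among them are the C1 cells, which make catecholamines and carry tyrosine hydroxylase, dopamine beta-hydroxylase and phenylethanolamine N-methyltransferase. The CVLM inhibits the RVLM, and the NTS receives the baroreceptor afferents that drive this inhibition. A punch also takes glia, vessels and neighboring neurons, and in such bulk tissue fewer cells of a type and less RNA per cell cannot be told apart.

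Total counts per library ranged from 9082087 to 10866099 in the SHRs and from 9310300 to 17889406 in the WKY rats. The name of each library ends in 1 or 2, a number whose meaning is not given in the sources used here. All 5 SHRs and 2 WKY rats (replicates 1 and 2) had number 1, and WKY rats 3, 4 and 5 had number 2, so this number is partly aligned with strain at 8 wk. WKY rat 3 stood apart from the other 9: its summed complex I subunits were at 22813 counts per 1000000 (CPM), against 9257 to 13068 in the other WKY rats and 8411 to 11817 in the SHRs, and its ribosomal protein genes were at 15165 CPM, against 5202 to 8795 and 5878 to 7606. For many results, the outcome without WKY rat 3 or without the number-2 libraries is therefore also given. The markers of C1 cells were detected in every rat, with Th at 12.2 to 54.0 CPM in the WKY rats and at 20.4 to 144 CPM in the SHRs. The lowest Th value was in WKY rat 1 and the highest in SHR 2, and the groups overlapped.

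Of 13411 genes tested, 114 were called higher in SHRs (0.850% of those tested) and 106 lower (0.790%), where called means an adjusted p of at most 0.01 and a fold change of at least 2. At an adjusted p under 0.05 with no fold threshold, referred to below as passing the test, 585 genes were higher (4.36%) and 726 lower (5.41%). These shares are the comparison for every count of passing genes in a list below. The values of SHRs and WKY rats did not overlap for 184 of the 220 called genes, which were selected for their difference, and for 658 of all genes tested (4.91%). The median standard error of the log2 difference was 0.21. Without the number-2 libraries, which leaves 2 WKY rats, 108 genes were called, and 103 of these were among the 220. All 220 kept their direction in that smaller set.

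**Figure D1:**
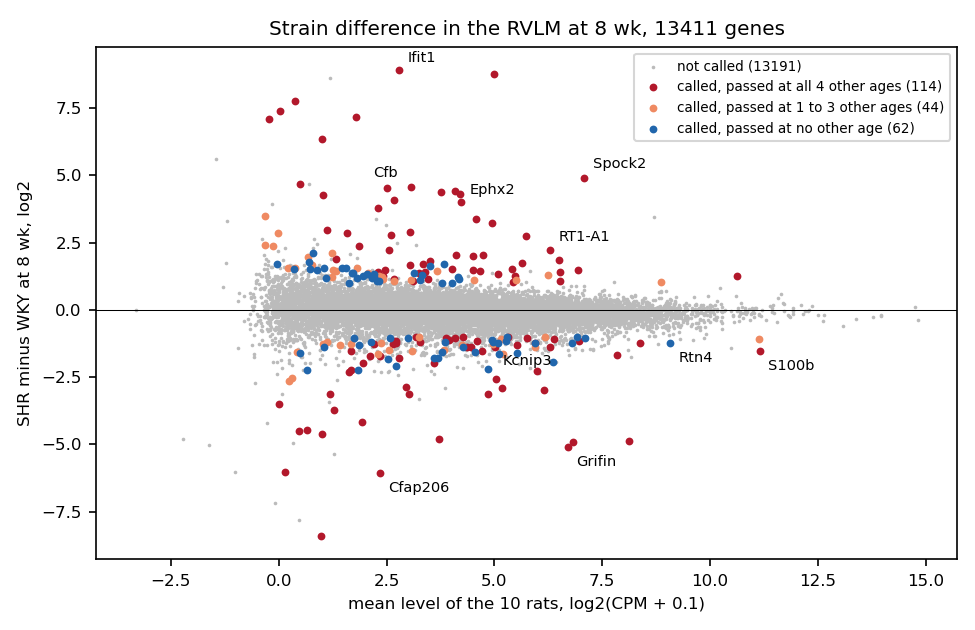
Strain difference of each gene (SHR minus WKY, log2) against its mean level in the 10 rats (log2 of CPM plus 0.1), with the 220 called genes colored by how many of the other 4 ages they passed at. Genes that passed at all ages reach log2 differences of 8.91 and -8.40, whereas those that passed at no other age lie between -2.24 and 2.13.

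Most of the called genes differed in the same direction in the older rats. At 10, 12, 16 and 24 wk, all in other animals, 114 of the 220 genes (59 higher, 55 lower) passed the test at every age in the direction of 8 wk, against 150 of all 13411 genes (1.12%). A further 44 passed at 1 to 3 of these ages and 62 (31 higher, 31 lower) at none. The sign of the difference was shared by all 4 later ages for 197 of the 220 genes (89.5%) and for 20.04% of all genes tested. In the 220 genes the median difference in the direction of 8 wk was 1.51 on the log2 scale at 8 wk and 1.18 over the later ages. In the 114 genes it was 1.87 at 8 wk and 1.87 over the later ages. These 114 were selected for having passed at every age, so a lasting difference is part of their definition. In the 62 genes it was 1.31 at 8 wk and 0.41 over the later ages; these 62 were selected for having passed only at 8 wk, so the drop is part of their definition. When the difference between 8 wk and the mean of the later ages was tested itself, 0 genes (0%) passed in the edgeR fit, with 2400 at an unadjusted p under 0.05, whereas DESeq2 gave 159. Leaving out WKY rat 1 raised the edgeR count from 0 to 378 and leaving out WKY rat 2 raised it to 39.

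**Figure D2:**
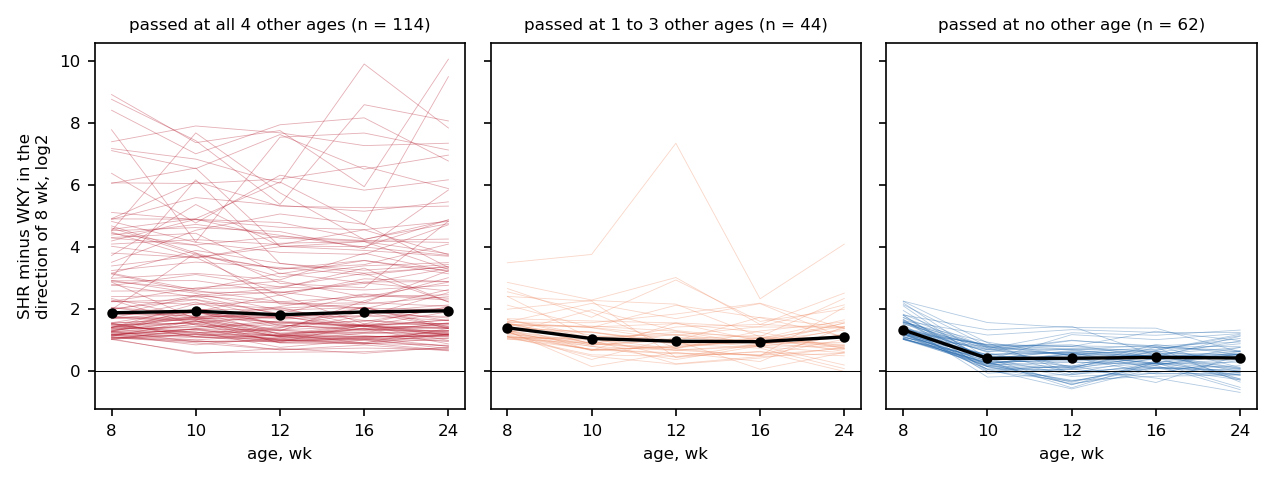
Strain difference in the RVLM at each age (x axis, wk), turned to the direction it had at 8 wk (y axis, log2), for the called genes in 3 classes; thin lines are genes and the black line is the median. The line of the 114 genes starts at 1.87 and that of the 62 genes at 1.31. When each gene was averaged over the later ages, the medians were 1.87 and 0.41. The classes were defined by the tests at the later ages, so these courses are part of their definition.

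The largest differences were in genes that were low in 1 strain and well above it in the other, at every age. Spock2, which encodes an extracellular proteoglycan of the testican family, was at 11.6, 11.5, 6.49, 7.87 and 6.62 CPM in the WKY rats and at 245, 265, 306, 259 and 233 CPM in the SHRs. Its strain difference was 4.90 ± 0.18 (SE) on the log2 scale (adjusted p = 1.2e-23), and every SHR was far above every WKY rat. At the later ages the difference was between 4.14 and 4.89.

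Ephx2, the soluble epoxide hydrolase that degrades vasoactive epoxides of arachidonic acid and a long-studied candidate gene of SHR strains, was at 1.19 to 3.28 CPM in the WKY rats and at 30.5 to 38.3 CPM in the SHRs (4.01 ± 0.19, adjusted p = 5.2e-20). Of 9 tested candidate genes of SHR strains, Ephx2 and Srebf1, a transcription factor of lipid synthesis (0.60 ± 0.20), were higher and Endog, a mitochondrial nuclease (-1.24 ± 0.34), was lower. Only Ephx2 passed among the 9 without WKY rat 3, and the same held without the number-2 libraries.

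On the higher side, Apoa5, an apolipoprotein that regulates plasma triglycerides, differed by 4.51 ± 0.34, with 0.206 to 1.19 CPM in the WKY rats and 8.51 to 14.3 CPM in the SHRs. Pxmp4, a peroxisomal membrane protein, was at 2.88 to 6.88 against 34.3 to 49.5 CPM (3.38 ± 0.20), and Pnpla1, a lipase-like protein, at 0.529 to 2.004 against 7.40 to 12.2 CPM (2.78 ± 0.27). No WKY rat reached the lowest SHR in any of these genes. Tomm40l, a homolog of the mitochondrial import channel (3.23 ± 0.18), Tmem94, a transmembrane protein (4.29 ± 0.36), and Ptprn2, a protein of dense-core vesicles (2.74 ± 0.33), were also higher in every SHR than in every WKY rat. Among features that carry only clone or locus names, AABR07064061.1 was listed at 0 in 3 WKY rats and at 57.8 to 74.9 CPM in the SHRs, and LOC103690108 (4.43 ± 0.27) and LOC100911830 (4.37 ± 0.27) followed.

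On the lower side, Cfap206, a protein of motile cilia, was at 7.81 to 12.4 CPM in the WKY rats and at 0 to 0.281 CPM in the SHRs (-6.06 ± 0.50, adjusted p = 2e-12). Grifin, a galectin-related protein known from the lens, was at 110, 207, 398, 105 and 190 CPM in the WKY rats and at 8.53, 4.97, 7.06, 4.79 and 3.98 CPM in the SHRs. Its difference was -5.10 ± 0.39 (adjusted p = 5e-13); WKY rat 3 was the highest, and the value was -4.72 without it. Tmem106c, a transmembrane protein, was at 44.5 to 71.7 against 4.36 to 7.22 CPM (-3.12 ± 0.16).

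The remaining genes at this end were Tstd1 (-4.81 ± 0.43), Haghl (-2.57 ± 0.20), Ctxn3 (-2.28 ± 0.27), Serhl2 (-1.96 ± 0.25), and, among clone or locus names, RGD1563294 (-4.90 ± 0.21), AABR07052523.1 (-4.88 ± 0.20) and AABR07057196.1 (-3.14 ± 0.24). No SHR reached the lowest WKY rat in any of them. The alpha-globin entry Hba-a3 had 202 counts in all WKY rats together and 0 in the SHRs, which corresponds to at least 59.4-fold lower levels when the SHR total is set to 3 counts. The other 4 hemoglobin genes tested did not pass.

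**Figure D3:**
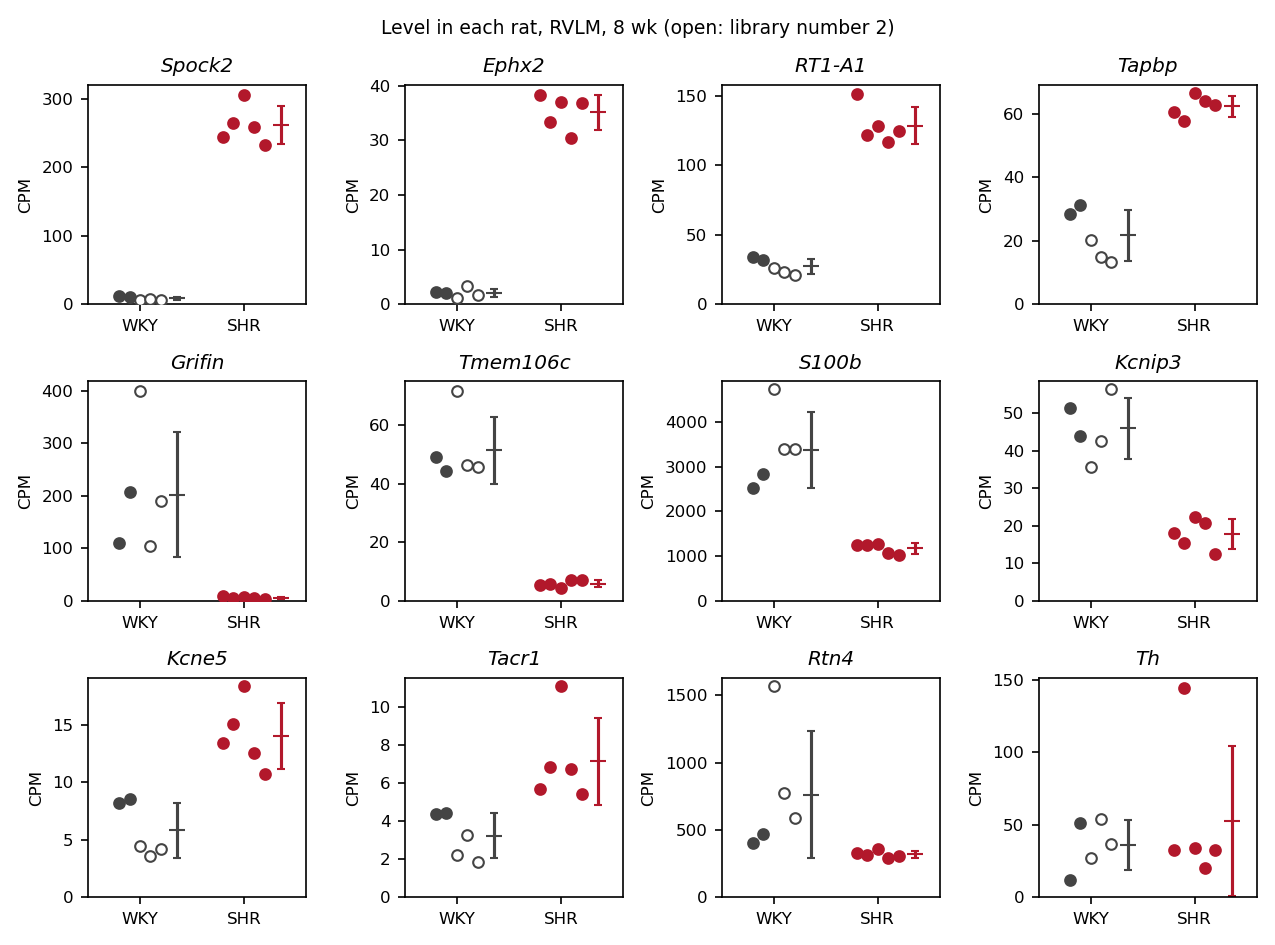
CPM of 12 genes in each of the 5 WKY rats (gray) and 5 SHRs (red) at 8 wk, with mean and SD at the right of each group; open circles are number-2 libraries. The groups are separated in every panel except that of Th, and in the panel of Rtn4 1 WKY rat, at 1569 CPM, lies far above all others.

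Of the 62 genes that passed at 8 wk and at no other age, 1 was still called without the number-2 libraries and 18 without WKY rat 3, against 95 and 113 of the 114 genes that passed at every age. The 62 genes had smaller differences at 8 wk (median 1.31 against 1.87 in the 114), nearer the threshold of a call. This contrast is therefore no test of the library number or of WKY rat 3. WKY rat 3 was the WKY rat farthest from the SHRs in 39 of the 62 genes, in 34 of the 114 and in 92 of all 220. The share over all genes tested was not computed. Rtn4, the neurite outgrowth inhibitor Nogo, was chosen as an example after its values were seen: it was at 406, 467, 1569, 774 and 593 CPM in the WKY rats and at 292 to 359 CPM in the SHRs (-1.25 ± 0.27, adjusted p = 0.0018). The difference was between -0.18 and 0.34 at the later ages. Ttc19, a factor for respiratory complex III, was at 15.6 to 80.9 against 6.03 to 15.7 CPM (-2.18 ± 0.52), and Slc24a5, a cation exchanger, at 7.06 to 30.7 against 2.18 to 6.77 CPM (-1.79 ± 0.44). Without the number-2 libraries their adjusted p was 0.22 and 0.74. P3h3, a collagen prolyl hydroxylase, was lower as well (-1.82 ± 0.37), with an adjusted p of 0.001 in all 10 rats and of 0.018 without the number-2 libraries.

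On the higher side, these 62 genes included Kcne5, a regulatory subunit of voltage-gated K+ channels. It was at 8.24, 8.54, 4.50, 3.62 and 4.25 CPM in the WKY rats and at 13.4, 15.1, 18.4, 12.6 and 10.7 CPM in the SHRs (1.28 ± 0.23, adjusted p = 0.00015). The 2 number-1 WKY rats were the highest of their strain but below every SHR, and the difference was 0.72 (adjusted p = 0.30) without the number-2 libraries and between 0.65 and 0.83 at the later ages. Gprin3, a regulator of neurite outgrowth (1.34 ± 0.31), and Sdk2, a synaptic adhesion molecule (1.27 ± 0.27), kept an adjusted p of 0.046 and 0.042 without those libraries. Col6a2, a chain of collagen VI (1.33 ± 0.30), had 0.58. With the library number added to the edgeR model as a term, the adjusted p was 0.0095 for Kcne5, 0.0091 for Gprin3 and 0.020 for Sdk2. It was 0.025 for P3h3, 0.12 for Ttc19 and 0.34 for Slc24a5. Beyond this term and leaving libraries out, the part of the library number or of WKY rat 3 in these differences was not tested.

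Of the 45 tested genes that the study names for the RVLM or for this age, 12 were higher, 4 were lower and 29 did not pass. These genes were picked in part from the same rats, so their directions are not independent evidence. Besides those described elsewhere, Igfbp5, which binds insulin-like growth factors, was higher (0.98 ± 0.29), and C1ql2, a synaptic organizer related to complement C1q, was lower (-1.10 ± 0.36, 21.1 to 68.4 against 10.6 to 32.0 CPM). Without WKY rat 3, 9 of the 45 passed, and Igfbp5 and C1ql2 did not (adjusted p = 0.087 and 0.16 in edgeR). Without the number-2 libraries 4 of the 45 passed, namely Kcnip3, Ramp1, Sdk2 and Gprin3.

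Genes of antigen presentation were next examined. Class I molecules display peptides that the immunoproteasome cuts, the TAP transporter imports and tapasin loads. Among 22 tested genes of the rat major histocompatibility complex (RT1) and its presentation machinery, 5 were higher and 1 lower. Over all genes tested, 4.36% were higher and 5.41% lower. The median difference of the 22 genes was 0.03, against -0.02 over all genes. RT1-A1, a class I molecule, was at 33.9, 32.2, 26.2, 23.6 and 20.8 CPM in the WKY rats and at 152, 122, 128, 117 and 125 CPM in the SHRs (2.24 ± 0.11, adjusted p = 4.2e-19). All SHRs were above all WKY rats, and the difference was 2.01 to 2.39 at the later ages. RT1-A2, a near-identical class I gene, went the other way (-1.15 ± 0.19), and reads shared between such genes may be split differently in the counting, so both values are uncertain.

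Tapbp, which encodes tapasin, was at 28.5, 31.3, 20.4, 15.0 and 13.4 CPM in the WKY rats and at 60.5, 57.8, 66.6, 64.0 and 62.8 CPM in the SHRs (1.53 ± 0.17, adjusted p = 5e-09). The number-2 WKY rats were the lower ones, and without them the difference was 1.03. Psmb8, a catalytic subunit of the immunoproteasome, was at 4.49 to 6.75 against 9.79 to 13.5 CPM (1.08 ± 0.18), and Tap2, a subunit of the peptide transporter, at 0.794 to 4.51 against 5.09 to 8.23 CPM (1.34 ± 0.37, adjusted p = 0.017). No WKY rat overlapped the SHRs in these genes. Tap2 no longer passed without WKY rat 3 (adjusted p = 0.067). The class II gene RT1-Db1 was at 0 to 0.206 against 1.41 to 4.41 CPM (4.67 ± 0.63).

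The promoters of the 3 machinery genes are shown because they share a motif that interferon-responsive genes often carry, GAAA followed after any 2 bases by GAAA. They are the 250 bases before and 50 bases after the gene start in RefSeq (build GRCr8, 5′ to 3′ on the strand of the gene), and the motif, searched on both strands, is in capitals.
Tapbp, chr20:4967828-4968127, minus strand: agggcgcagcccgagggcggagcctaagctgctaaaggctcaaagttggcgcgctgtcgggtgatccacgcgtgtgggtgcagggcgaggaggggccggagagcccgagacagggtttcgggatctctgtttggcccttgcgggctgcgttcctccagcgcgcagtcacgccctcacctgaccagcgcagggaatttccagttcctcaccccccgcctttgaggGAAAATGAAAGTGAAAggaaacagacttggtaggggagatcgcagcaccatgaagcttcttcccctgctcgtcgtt
Psmb8, chr20:4656982-4657281, minus strand: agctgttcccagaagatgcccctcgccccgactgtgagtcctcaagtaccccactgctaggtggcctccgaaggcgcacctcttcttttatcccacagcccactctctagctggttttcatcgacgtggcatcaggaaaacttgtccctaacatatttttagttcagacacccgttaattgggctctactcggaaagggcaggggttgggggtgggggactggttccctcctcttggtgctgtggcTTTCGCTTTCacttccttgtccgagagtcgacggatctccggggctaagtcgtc
Tap2, chr20:4652247-4652546, minus strand: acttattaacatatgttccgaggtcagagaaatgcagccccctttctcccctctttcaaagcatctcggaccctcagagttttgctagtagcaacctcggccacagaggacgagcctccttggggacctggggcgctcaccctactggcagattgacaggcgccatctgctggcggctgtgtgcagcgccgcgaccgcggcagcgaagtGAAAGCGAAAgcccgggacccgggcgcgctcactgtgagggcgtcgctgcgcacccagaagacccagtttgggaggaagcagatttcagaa
The Tapbp promoter holds 2 overlapping matches and the other promoters hold 1 each, that of Psmb8 on the opposite strand. The motif was in 8 of 32 promoters of the antigen presentation list, among them those of B2m and Tap1, which did not pass, and in 3.92% of all 33469 promoters of this length. No match was found in the promoters of RT1-A1, RT1-A2 and RT1-Db1, which passed the test. The promoters shown were chosen for their motif, and a match describes letters only.

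The interferon-induced genes did not move together. Of 24 tested in this list, which also holds the NOD-like receptor gene Nlrx1, Ifit1 and Nlrx1 were higher and Ifit2 lower. Over all genes tested, 4.36% were higher and 5.41% lower. The median difference of the list was -0.08. Ifit1, an interferon-induced protein that binds foreign RNA, was detected by 1 count in 1 WKY rat and by 693 counts over the 5 SHRs, at 10.99, 10.1, 19.1, 9.17 and 18.6 CPM. The ratio was 786, with a 95% exact counting interval from 141 to 31087. Its neighbor in function Ifit2 was lower instead, at 8.74 to 27.6 against 6.67 to 12.6 CPM (-0.96 ± 0.27, adjusted p = 0.022), with overlapping groups. Nlrx1, a mitochondrial member of the NOD-like receptor family, was at 3.31 to 14.1 against 18.0 to 24.4 CPM (1.01 ± 0.23), and WKY rat 3 was the lowest. The difference of Nlrx1 was 0.62 without the number-2 libraries (adjusted p = 0.34), that of Ifit2 had an adjusted p of 0.48, and Ifit1 was the 1 interferon-induced gene that passed.

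Of 23 tested complement features, 3 were higher and 1 lower, against 4.36% and 5.41% of all genes tested, and the median difference was 0.02. Cfb, factor B of the alternative pathway, has 2 entries in the table. The entry that was called was at 0 to 1.75 CPM in the WKY rats and at 11.4 to 20.01 CPM in the SHRs (4.56 ± 0.66, adjusted p = 4.5e-06), whereas the second was at 12.0 to 18.4 against 0.0981 to 15.3 CPM (-1.07 ± 0.51, adjusted p = 0.17). Counts of Cfb may be shared between these entries, so the level of the gene as a whole is uncertain. C2, the convertase component of the classical pathway, was higher in every SHR (1.10 ± 0.22). Serping1, the C1 inhibitor, was higher in 4 of 5 SHRs than in any WKY rat (1.55 ± 0.37), and C4a was lower (-1.01 ± 0.34). Without the number-2 libraries only Cfb passed, whereas with the library number as a term 3 complement features were higher and 1 lower.

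**Figure D4:**
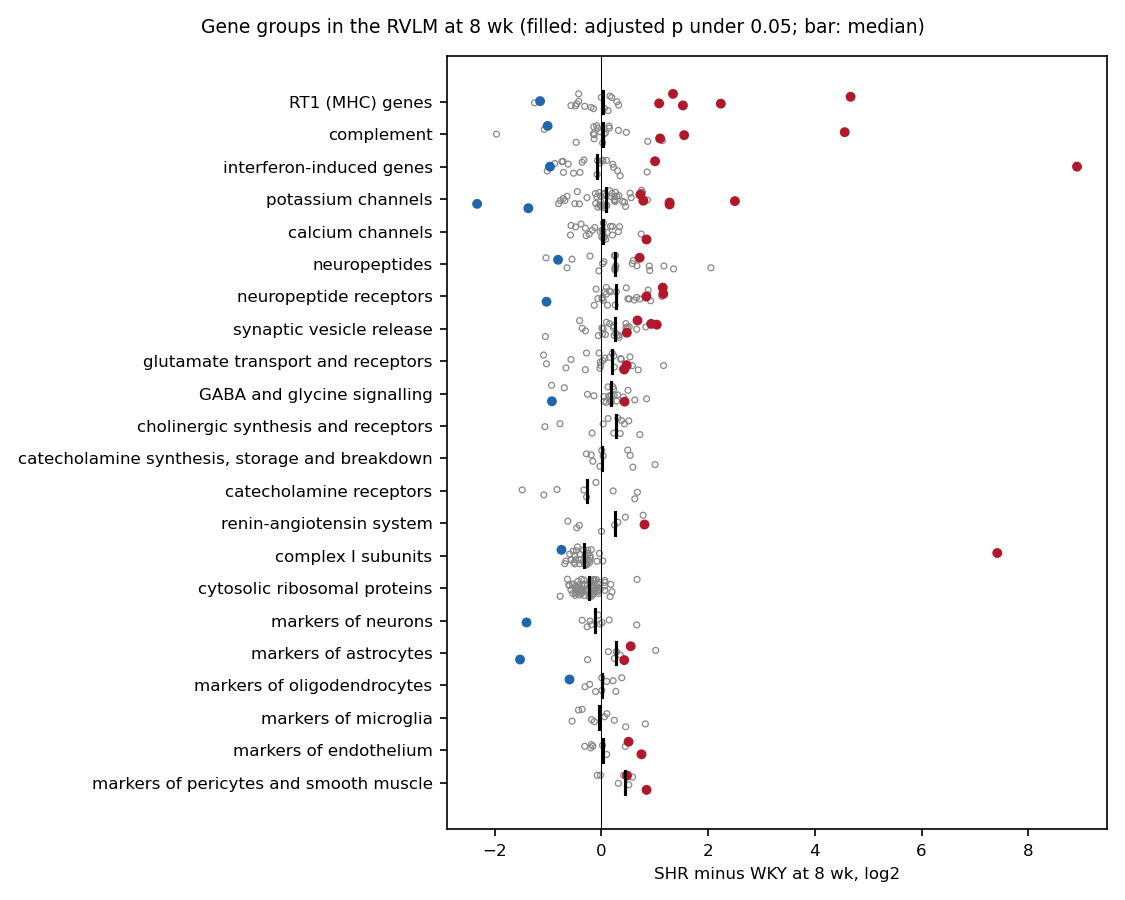
Strain difference at 8 wk (x axis, SHR minus WKY, log2) of the tested members of 22 gene groups; filled points passed the test and bars are group medians. The medians lie between -0.33 (complex I subunits) and 0.45 (pericytes and smooth muscle), and catecholamine, cholinergic and ribosomal genes hold no filled point. Without WKY rat 3 the complex I median was -0.04, and the ribosomal median moved from -0.23 to 0.12.

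Potassium channels and their subunits shape repetitive firing. Of 52 tested, 5 were higher and 2 lower, against 4.36% and 5.41% of all genes tested, with a median of 0.09. The clearest difference was in Kcnip3, the Ca2+-binding protein DREAM/KChIP3 that associates with Kv4 channels, which was at 51.4, 44.0, 35.6, 42.5 and 56.4 CPM in the WKY rats and at 18.1, 15.4, 22.3, 20.8 and 12.6 CPM in the SHRs (-1.37 ± 0.17, adjusted p = 7.6e-08). Every SHR was below every WKY rat, the difference was -1.28 to -1.48 at the later ages, and it was -1.44 without the number-2 libraries. Kcne2, another channel beta-subunit, was at 2.91 to 7.53 against 0.625 to 1.96 CPM (-2.33 ± 0.32) and was also lower at every age.

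Kcnip2, the relative of Kcnip3 that sets Kv4 surface levels, differed in the opposite direction, at 0.321, 2.37, 0, 2.599 and 3.95 CPM in the WKY rats and at 12.2, 13.5, 13.9, 6.46 and 10.3 CPM in the SHRs (2.50 ± 0.75, adjusted p = 0.029). The groups did not overlap, but the adjusted p was 0.091 without WKY rat 3 and 0.32 without the number-2 libraries, where the difference was 3.01. With the library number as a term the difference was 3.36 (adjusted p = 0.017). Kcnn3, a small-conductance Ca2+-activated channel (0.73 ± 0.15), and Kcnj3, a G protein-gated inward rectifier (0.79 ± 0.23), were higher as well. Of the 7 channel genes, Kcnip3 and Kcne2 passed without the number-2 libraries. Without WKY rat 3, 2 of the 52 potassium channel genes were higher and 2 lower. With the library number as a term, 3 of the 52 potassium channel genes were higher and 2 lower.

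Of 11 tested sodium channel genes, 2 were higher and 1 lower (-1.46), with a median of 0.56. Over all genes tested, 4.36% were higher and 5.41% lower. The higher ones were Scn9a (Nav1.7, 1.23 ± 0.37, 1.32 to 3.58 against 3.92 to 9.59 CPM) and Scn8a (Nav1.6, 0.88 ± 0.29). Their adjusted p values were 0.03 and 0.049. None of the 11 genes passed without WKY rat 3 or without the number-2 libraries in edgeR. Cacna1g, the T-type Ca2+ channel Cav3.1, was the 1 gene of 25 Ca2+ channel genes that passed (0.84 ± 0.27). It did not pass without WKY rat 3 or without the number-2 libraries.

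The enzymes of catecholamine synthesis did not pass. Of 10 tested genes of synthesis, storage and breakdown and 9 catecholamine receptors, 0 passed. Dbh was at 1.71, 8.02, 5.29, 12.3 and 15.5 CPM in the WKY rats and at 7.36, 59.3, 7.69, 3.65 and 9.35 CPM in the SHRs (1.01 ± 0.59, adjusted p = 0.26), and Pnmt ranged from 0.85 to 38.4 in the WKY rats and from 9.25 to 46.5 CPM in the SHRs (0.59 ± 0.61, adjusted p = 0.55). SHR 2 was the highest SHR in Th, Dbh and Pnmt, and without this rat the differences were -0.28, -0.31 and -0.03. Ddc, which decarboxylates L-DOPA, varied less (-0.19 ± 0.16). With these errors, a difference of the size seen in Dbh could not be told from the spread between rats. The receptor Adra1d had the value -1.08 ± 0.52 (adjusted p = 0.17).

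Of 9 genes tested in the renin-angiotensin system 1 passed, against 4.36% higher and 5.41% lower over all genes. This was Agt, the angiotensinogen precursor made largely by astrocytes. It was at 968, 1023, 955, 657 and 781 CPM in the WKY rats and at 1476, 1432, 1870, 1297 and 1583 CPM in the SHRs (0.80 ± 0.15, adjusted p = 0.0002). All SHRs were above all WKY rats, while the difference was 0.08 to 0.30 at the later ages. Its adjusted p was 0.11 without the number-2 libraries. With the library number as a term the difference of Agt was 0.55 (adjusted p = 0.030).

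The few peptide signaling genes that passed went in both directions, and over all genes tested 4.36% were higher and 5.41% lower. Of 23 neuropeptide genes, Calca, the precursor of calcitonin gene-related peptide (CGRP), was higher (0.72 ± 0.22, 284 to 487 against 405 to 722 CPM) and Adm, adrenomedullin, lower (-0.81 ± 0.24). Ramp1, the subunit that makes the CGRP receptor, was at 65.5, 97.2, 153, 81.2 and 89.9 CPM in the WKY rats and at 59.4, 53.2, 33.4, 45.0 and 47.5 CPM in the SHRs (-1.03 ± 0.18, adjusted p = 0.00014). Every SHR was below every WKY rat. Among 28 peptide receptor genes, Tacr1, the substance P receptor (1.15 ± 0.27, 1.88 to 4.42 against 5.46 to 11.1 CPM), Oprk1, the kappa opioid receptor (1.16 ± 0.32), and Crhr1, the corticotropin-releasing hormone receptor (0.84 ± 0.26), were higher, and Ramp1 was the 1 lower. Without WKY rat 3, Tacr1 was the 1 receptor gene that stayed higher (adjusted p = 0.023), and Ramp1 stayed lower. Without the number-2 libraries Ramp1 alone passed (adjusted p = 0.046).

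Genes of vesicle release that passed were all higher, 4 of 28, against 4.36% of all genes tested, with a list median of 0.25. They were Rph3a, a Rab3 effector (0.93 ± 0.23), Rims2, a protein of the active zone (0.48 ± 0.13), Cplx2, which clamps the fusion machinery (1.04 ± 0.29, 18.9 to 50.9 against 53.2 to 100 CPM), and Syn3, a synapsin (0.68 ± 0.21). Without WKY rat 3, Rph3a passed (adjusted p = 0.046), as did Snap25, a fusion protein of the synapse named here after its values were seen, on the lower side (-0.46, adjusted p = 0.045). None of the 28 passed without the number-2 libraries, where the list median was 0.03. In transmitter groups, Slc1a2, the main astrocytic glutamate transporter (0.43 ± 0.12), and Grm3, a metabotropic glutamate receptor (0.47 ± 0.14), were higher among 27 glutamate genes. Of 24 GABA and glycine genes, the GABA-A subunit Gabrb1 was higher (0.44 ± 0.12) and the glycine receptor subunit Glrb lower (-0.93 ± 0.26, 462 to 1041 against 244 to 449 CPM). The 2 highest values of Glrb were in number-2 libraries, and without those libraries its difference was -0.50 (adjusted p = 0.74). Slc1a2, Grm3 and Gabrb1 did not pass without WKY rat 3 or without the number-2 libraries. None of 12 cholinergic genes passed.

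Among cell type markers, S100b, a Ca2+-binding protein of astrocytes, was at 2534, 2833, 4732, 3394 and 3394 CPM in the WKY rats and at 1258, 1252, 1281, 1064 and 1019 CPM in the SHRs (-1.52 ± 0.14, adjusted p = 4.4e-11). The groups were far apart, and the difference was -0.99 to -1.26 at the later ages. No other astrocyte marker passed on the lower side: of 10, Aldh1l1 (0.55 ± 0.17) and Slc1a2 were higher, and the median was 0.28. With S100b, 2 of the 10 had values below 0. The summed levels of the list, which include S100b, were at 4180 to 5881 CPM in the WKY rats and at 2763 to 3555 CPM in the SHRs. Of 10 oligodendrocyte markers, the myelin gene Mobp was lower (-0.60 ± 0.13) and 0 were higher, with a list median of 0.01. Of 7 precursor markers, Bcas1, found in early myelinating cells, was higher (0.37 ± 0.09), and its adjusted p was 0.38 without the number-2 libraries. Of 9 endothelial markers, the receptors Tie1 (0.75 ± 0.18) and Kdr (0.51 ± 0.16) were higher, while 4 of the 9 had values below 0, the median was 0.02, and the summed levels overlapped (327 to 451 against 399 to 481 CPM). Of 8 markers of pericytes and smooth muscle, Rgs5 (0.48 ± 0.14) and Myh11 (0.85 ± 0.27) were higher; the summed levels of this list were at 99 to 119 CPM in the WKY rats and at 129 to 162 CPM in the SHRs. Without WKY rat 3, Aldh1l1, Slc1a2, Kdr, Rgs5 and Myh11 did not pass, and without the number-2 libraries no endothelial or mural marker passed in edgeR (adjusted p = 0.34 for Tie1, the lowest). The part of these markers in the differences above was not tested.

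The neuronal marker Nefh, the heavy neurofilament chain, was at 1007, 2502, 4700, 1396 and 828 CPM in the WKY rats and at 544 to 1022 CPM in the SHRs (-1.41 ± 0.46, adjusted p = 0.044), with WKY rat 3 the highest and an adjusted p of 0.28 without it. None of the 10 microglial, 9 leptomeningeal, 4 ependymal, 3 choroid plexus, 7 motor neuron, 4 serotonergic or 5 blood cell markers tested passed. Ribosomal protein genes (0 of 73 features) and immediate early genes (0 of 11) did not pass either. Of 35 complex I subunit genes, Ndufb8 was lower (-0.75 ± 0.21, adjusted p = 0.022) and had an adjusted p of 0.23 without WKY rat 3. Ndufa1 was listed at 0 in all WKY rats and had 94 counts over the SHRs. Of 14 glucocorticoid-responsive genes, the cochaperone Fkbp5 (-1.01 ± 0.32) and the sulfotransferase Sult1a1 (-0.90 ± 0.25) were lower, and neither passed without WKY rat 3. Of 22 collagens, Col6a2 was higher and Col9a1 (-2.65 ± 0.58) and Col16a1 (-0.76 ± 0.23) were lower, against 4.36% and 5.41% of all genes. Without the number-2 libraries only Col16a1 passed, with an adjusted p of 0.058 for Col9a1. None of 8 Hox and Zic genes passed.

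The strain differences of the RVLM were next compared with those of the other nuclei of the same rats. Of the 220 called genes, 218 had the same sign in the CVLM and 217 in the NTS, against 70.1% and 62.9% of all genes tested. In the same direction, 160 and 152 passed there, against 7.07% and 5.16% of all genes. Of the 62 genes that passed at no later age, 62 and 61 had the same sign and 20 and 21 passed. These regions came from the same animals, so they are not independent of the RVLM values. For 2 CVLM libraries (replicate 5 of each strain) the labels give both 8 and 10 wk, and they were used at 8 wk.

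A direct test of the strain difference between regions within rats passed for 8 genes in the RVLM against the CVLM (0.0597%; 1429 at an unadjusted p under 0.05) and for 75 in the RVLM against the NTS (0.559%; 2773). Nov, a matricellular growth regulator, was higher in SHRs in the RVLM (1.89) and had a value of -0.08 in the CVLM (difference 1.95 ± 0.42, adjusted p = 0.025); its levels in the RVLM were 0.668 to 1.32 against 3.02 to 4.81 CPM. Lamb3, a laminin chain, had the opposite signs of -0.84 in the RVLM and 1.16 in the CVLM (difference -1.95 ± 0.38), and its value in the RVLM had an adjusted p of 0.14 without WKY rat 3. Pbld1 was higher in both, by 1.52 and 2.65, and LOC363337 lower in both, by -2.85 and -1.05. Retsat, a retinol saturase, was lower in the RVLM by -0.69 and in the CVLM by -1.36. C1r, a protease of complement C1 (difference 1.19 ± 0.22), Taf12 (0.66 ± 0.13) and Slc16a6 (-1.09 ± 0.24) completed the 8.

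Against the NTS, Aldh1a1, which makes retinoic acid, was lower in SHRs in the RVLM (-0.65) and had a value of 0.72 in the NTS (difference -1.37 ± 0.17, adjusted p = 6.8e-08). Cbs, which makes cystathionine and hydrogen sulfide, was at 8.60 to 14.7 against 35.8 to 47.7 CPM in the RVLM (2.03), and its strain difference was 0.83 in the NTS (difference 1.22 ± 0.20). C1r and C1s, the paired proteases of complement C1, had values of 0.32 and -0.15 in the RVLM and of -0.96 and -1.47 in the NTS (differences 1.28 ± 0.22 and 1.39 ± 0.24). Tnnc2, Terf2ip, Sf3b3 and Cfap206 had differences of -1.95 ± 0.35, 0.58 ± 0.11, 0.81 ± 0.16 and -2.93 ± 0.60. The count of 75 depended on single rats: it was 13 without WKY rat 3 and 1722 without WKY rat 1.

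**Figure D5:**
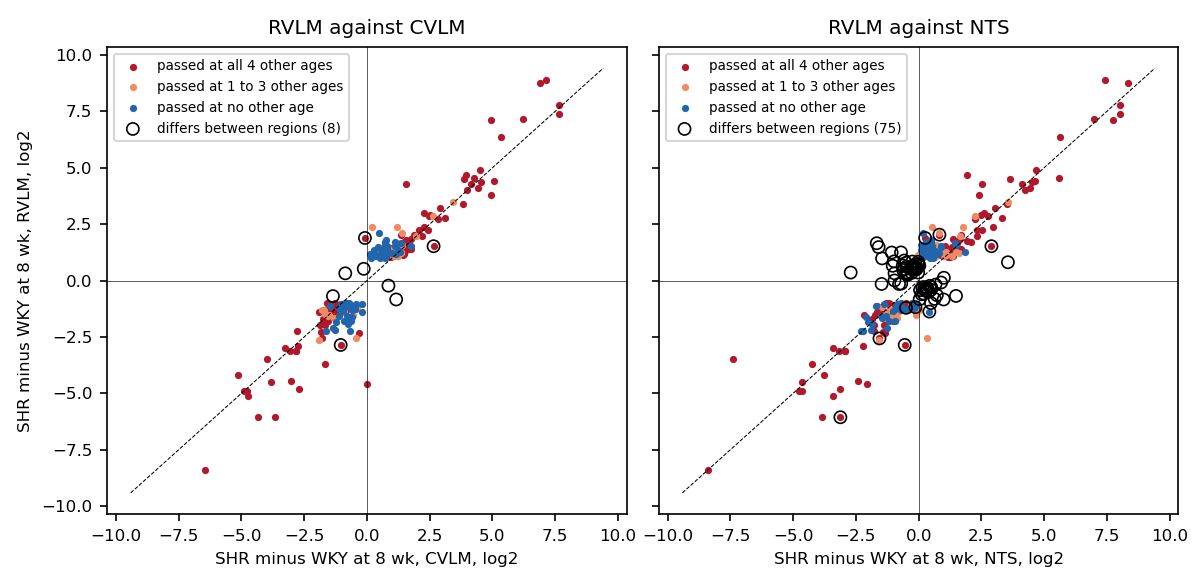
Strain difference at 8 wk in the RVLM (y axis, log2) against that in the CVLM and in the NTS (x axes, log2) for the 220 called genes; the dashed line marks equal values and black rings mark the 8 and 75 genes whose difference between regions passed. Most called genes lie near the line, with 218 and 217 of 220 on the same side of zero in both regions.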

How the data were processed

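RNA was sequenced from RVLM, CVLM and NTS punches of female rats. The authors aligned reads with STAR to the rn6 rat genome and quantified genes with RSEM, and the authors deposited each gene's expected count as RSEM estimated it, with no normalization. They were rounded to whole counts; the study also adjusted counts for batch, which was not done here because the batches are not given in the sources used here. The genes, lists and rules described here were chosen with earlier results of these data known. Genes whose largest rlog value reached 3.5 were tested (13411 of 32883) with the edgeR 4.0.16 quasi-likelihood test (TMM scaling, robust) on all 46 RVLM libraries in 10 groups of strain and age, without covariates, and p-values were adjusted by Benjamini-Hochberg over all genes tested. CPM were scaled by TMM. Region differences were tested on the libraries of all 3 regions with the rat as a block. Named genes were the 10 highest and 10 lowest called genes with a mean of at least 5 CPM (and 3 each with clone names), genes the study names (those not passing mostly as a count), up to 6 passing members of each list by smallest p and up to 5 genes per direction of each region test. Total counts per library were 6737117 to 17889406 over the 46 RVLM libraries; intervals and floors cover counting error only. Scripts were tested on simulated data. Alternatives were RLE scaling, DESeq2 1.42.0, other filters and thresholds, a replicate block, the library number as a term, 2 surrogate variables (sva 3.50.0), 8 wk alone, and leaving out rats or the number-2 libraries. Some items are not reported here.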

Additional observations from a re-analysis of the deposited data

Results flagged for a closer look

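Within each group of 5 rats, a value was listed here when its gap to the next rat exceeded 0.71 of the range of the group; chance lists about 1 in 20 groups, and 30 of 290 were listed. WKY rat 3 was the highest WKY rat in Tmem106c (0.836 of the range), Apoa5 (0.716), Haghl (0.794), Tstd1 (0.721), Ndufb8 (0.777), Lamb3 (0.828) and Tnnc2 (0.813), and in the summed RT1 (0.852) and complex I (0.719) genes. WKY rat 4 was the highest in Ifit1 (1) and Cbs (0.728), WKY rat 1 in Syn3 (0.773). WKY rat 1 also stood apart in summed collagens (0.816) and WKY rat 5 in summed motor neuron markers (0.785).

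SHR 2 was the highest SHR in Th (0.891), Dbh (0.898), Pnmt (0.747) and Col16a1 (0.756), and stood apart in the summed catecholamine genes (0.729), serotonergic markers (0.871) and microglial markers (0.715). SHR 1 was the lowest in Rims2 (0.937) and Rgs5 (0.844) and the highest in Kcne2 (0.766), and stood apart in summed glutamate genes (0.725). SHR 3 was the highest in Kcnn3 (0.726) and Tacr1 (0.754) and stood apart in endothelial markers (0.791). SHR 4 was the highest in P3h3 (0.852), and SHR 5 stood apart in summed potassium channels (0.843).

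The strain difference of 8 wk differed between regions, by the within-rat test, in named genes as follows (RVLM minus CVLM, log2): Slc16a6 -1.09, Pbld1 -1.14, Lamb3 -1.95, Nov 1.95, C1r 1.19, Retsat 0.67, LOC363337 -1.82 and Taf12 0.66. For RVLM minus NTS the values were Pbld1 -1.37, Lamb3 -1.81, Nov 1.66, Cfap206 -2.93, Terf2ip 0.58, C1r 1.28, C1s 1.39, Tnnc2 -1.95, Igfbp5 2.28, Aldh1a1 -1.37, Sf3b3 0.81, Haghl -0.91, Adm -1.45, Cbs 1.22, LOC363337 -2.26 and Cacna1g 1.16.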

How the results depend on the processing

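Of the 220 called genes (114 higher, 106 lower), the count was 109 (61 and 48) when 8 wk was fitted alone, 108 (54 and 54) without the number-2 libraries, 149 with 62 lower when the library number was a term, 304 with 166 lower in DESeq2, 65 (36 and 29) at a log2 fold change above 2, and 414 (208 and 206) with no fold threshold. Leaving out 1 rat gave 175 to 333 called genes, 96 to 163 higher and 78 to 170 lower, with the highest count without WKY rat 1. The test of 8 wk against the later ages passed for 0 genes, for 159 in DESeq2 and 4 with 2 surrogate variables, and for 0 to 378 when 1 rat was left out. RVLM against CVLM gave 8 genes, 2 with 8 wk alone, 0 without the number-2 libraries (432 at an unadjusted p under 0.05) and 3 to 16 with 1 rat left out. RVLM against NTS gave 75 genes, 9 with 8 wk alone, 117 with RLE scaling, 5 without the number-2 libraries, 23 with no replicate block for the rat and 13 to 1722 with 1 rat left out. The cause of these changes was not tested.

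Same-numbered rats of the 2 strains did not deviate together (correlations of -0.27, 0.08, -0.11, 0.06 and 0.07), so the replicate number was not taken to pair them. With a replicate block 150 genes were called and 0 passed against the later ages. Among the 105 named genes, 7 signs changed, all in genes that did not pass: Th, Dbh and Pnmt without SHR 2, Terf2ip (0.044), Pnmt (-0.16) and C1s (0.040) without the number-2 libraries, and C1s without WKY rat 5. With 1 rat left out, Th ranged from -0.28 to 0.76, Dbh from -0.31 to 1.34, Pnmt from -0.028 to 1.57 and C1s from -0.30 to 0.0063. The 5 rats per group, 2 WKY rats among the number-1 libraries, and counts near 0 in 1 strain limit the precision.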
